A study of Mus musculus with 2 samples.

Results

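The 9 miRNA genes described here, of 1973 in the tables, are known from blood cells and macrophages. They comprise a red cell group (Mir144, Mir451a and Mir486), a leukocyte group (Mir223, Mir150, Mir155, Mir146 and Mir142b) and the tissue macrophage gene Mir511. They were listed by known cell type and selected on earlier results of these libraries. These were the sense-strand counts, or at Mir142b the reads on the other strand, and the ratio of these counts between the libraries. Levels and ratios are therefore given as descriptions, with no test. The tissue was the neural tube of mouse embryos of strain B6NCrl at embryonic day 14.5, from which total RNA was taken, and the labels name no treatment or altered allele. Both libraries form 1 group and stem from different litters, replicate 1 from that of dam 1 and replicate 2 from that of dam 2. The labels call each sample a single neural tube and also give its sex as male and female pooled.

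The microRNAs are small RNAs that guide silencing complexes to messenger RNAs, mainly through the seed at their 5′ end. MiR-144 and miR-451a arise from 1 red cell transcript under control of the factor GATA1, and miR-451a is cut from its hairpin by the Argonaute protein Ago2 instead of Dicer. MiR-223 marks granulocytes and monocytes, miR-150 mature lymphocytes, and miR-142 nearly all blood-derived white cells. An embryonic neural tube carries vessels with nucleated and enucleated red cells and is colonised by yolk sac derived macrophages that become microglia.

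Mature sequences in the RefSeq miRNA table (GRCm38.p6) show what separates these genes. They are written 5′ to 3′ with the seed, bases 2 to 8, in capitals. The table held a mature sequence for 8 of the 9 genes, all except Mir486. Mir142 is shown because it lies opposite Mir142b, and Mir146b because it shares the seed of Mir146. For Mir150 the sequence is that of the arm the table held, 3p. The deposited counts are per gene, so which arm of a hairpin the reads came from is not known.

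miR-144-3p: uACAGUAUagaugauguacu
miR-451a: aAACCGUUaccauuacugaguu
miR-223-3p: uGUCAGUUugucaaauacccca
miR-150-3p: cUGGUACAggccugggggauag
miR-155-5p: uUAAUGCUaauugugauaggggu
miR-146a-5p: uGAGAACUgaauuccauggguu
miR-146b-5p: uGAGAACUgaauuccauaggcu
miR-142a-3p: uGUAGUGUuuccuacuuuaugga
miR-142b: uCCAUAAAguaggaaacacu
miR-511-3p: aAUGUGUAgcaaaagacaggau

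Among the mature sequences the table held for 8 of the genes, no pair of genes shared a seed, and only miR-146a-5p shared its seed with another mature miRNA of the table, miR-146b-5p. These 2 are identical at 20 of 22 bases and differ by G18A and U21C, with positions counted from the 5′ end of miR-146a-5p. None of these mature sequences was identical to that of another gene in the table. The sequence of miR-142b matches exactly, over 20 bases, the reverse complement of the 23-base miR-142a-3p, so at that locus the strand of a read decides which of the 2 it is.

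The count tables held 3172235 sense counts on miRNA genes in replicate 1 and 3671915 in replicate 2, out of 5941830 and 7074029 reads. Abundance is given as counts per 1000000 of these sense counts (CPM), so 1 read was worth 0.315 CPM in replicate 1 and 0.272 CPM in replicate 2, and the limit taken for a count of 0, 3 counts, was 0.946 CPM and 0.817 CPM. Reads that aligned at several positions, 32.4% and 33.3% of all reads, entered no gene count. Intervals are exact 95% intervals for counting error only, and with 1 library per dam they hold no spread between litters. No molecular identifiers are described, so reads copied from the same molecule cannot be told apart, and the intervals may be too narrow. The intervals are two-sided, so for a count of 0 their upper end is higher than that limit, at 1.16 and 1.005 CPM. Of the labelled tissue's own markers, all 5 listed neuronal genes reached 10 counts in either library, and together they held 1.39% and 1.29% of sense counts. Mir128-1 (1751 and 896 CPM) and Mir128-2 (747 and 396 CPM) were higher in replicate 1, whereas Mir138-1 stood at 853 and 1372 CPM.

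The 9 members were rare. Together they held 781 sense counts in replicate 1 and 1458 in replicate 2, or 0.0246% and 0.0397% of all sense counts. With the reads on the other strand at Mir142b added, the totals were 1097 and 2157 reads. In both libraries Mir142b, read from the other strand, was the most abundant and Mir511 the least. Mir451a was the second in replicate 1 and the third in replicate 2, and Mir150 and Mir155 followed it in both. Mir223 was the sixth of the 9 in replicate 1 and the second in replicate 2. A read covers a whole mature miRNA of 20 to 23 bases, so no correction for gene length was made when levels of genes were set side by side.

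**Figure D1:**
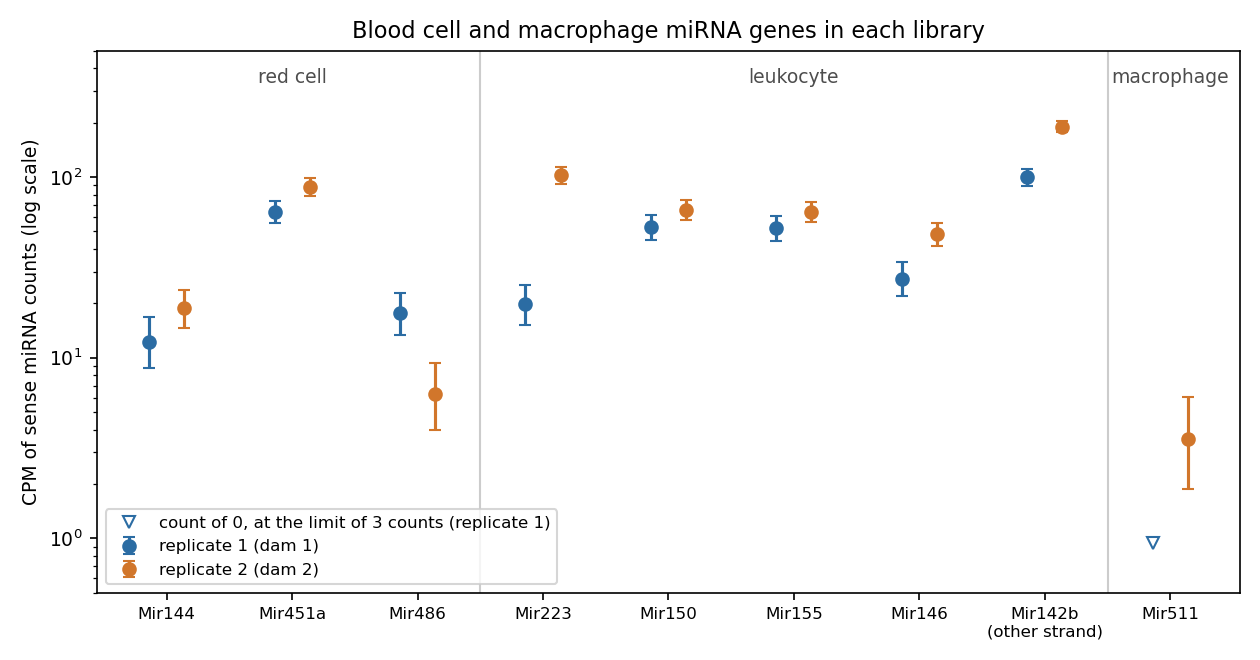
CPM on a log axis for each member in replicate 1 and replicate 2, with exact 95% Poisson intervals of the count as bars. Mir142b is drawn from its other-strand reads, and the open triangle marks the count of 0 of Mir511 at the limit of 3 counts (0.946 CPM). Mir223 and Mir486 lie far apart between the libraries in opposite directions, from 19.9 to 102 CPM and from 17.7 to 6.26 CPM.

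Of the red cell genes, Mir451a was the highest in both libraries. It supports red cell maturation and protects red cells from oxidative stress. It lies at chromosome 11, 78073170 to 78073241 on the plus strand, outside any other annotated gene of that strand. Its mature sequence, in capitals in the hairpin below, runs from base 17 to base 38 of 72, from the 5′ arm into the loop:

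Mir451a hairpin: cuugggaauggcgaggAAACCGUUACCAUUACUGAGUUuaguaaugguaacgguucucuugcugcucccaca

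Mir451a had 204 counts (64.3 CPM) in replicate 1 and 324 counts (88.2 CPM) in replicate 2, a mean of 76.3 ± 16.9 CPM (SD, n = 2). After library scaling with TMM (trimmed mean of M-values), its log2 ratio of replicate 1 over replicate 2 was -0.24, with a counting interval of -0.50 to 0.01. This interval includes 0. Scaling by total counts, which moved every log2 ratio by -0.21, gave -0.46 (interval -0.72 to -0.20), which does not. On the opposite strand lies Mir451b, at the same coordinates, and 0 reads of either library lay on that strand.

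Mir144, whose product modulates globin synthesis and the response of red cells to oxidative stress, lies 99 bases upstream of Mir451a on the same strand, at chromosome 11, 78073005 to 78073070. It had 39 counts (12.3 CPM) in replicate 1 and 69 counts (18.8 CPM) in replicate 2. Its log2 ratio was -0.39 (interval -1.0 to 0.19), which includes 0, and -0.60 with scaling by total counts (interval -1.22 to -0.03), which does not. Within a library, Mir451a had 5.23 times the counts of Mir144 in replicate 1 (interval 3.70 to 7.57) and 4.70 times in replicate 2 (3.61 to 6.18). The neighbouring genes thus kept a similar proportion in both libraries, with intervals that overlap.

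Mir486 went the other way from its red cell companions. It lies in an intron of Ank1, the gene of the red cell membrane protein ankyrin, at chromosome 8, 23142555 to 23142682 on the plus strand. Its product is abundant in red cells and also in muscle. Mir486 had 56 counts (17.7 CPM) in replicate 1 and 23 counts (6.26 CPM) in replicate 2. It was 3.23-fold higher in replicate 1, with a log2 ratio of 1.69 (interval 0.98 to 2.48). The ratio of Mir486 to Mir451a was 0.275 in replicate 1 (interval 0.2005 to 0.371) and 0.0710 in replicate 2 (interval 0.0444 to 0.108), and these intervals do not overlap.

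The locus of Mir486 also holds Mir3107, annotated on the minus strand at 23142573 to 23142662 and not analysed here as a row of its own. Reads on that strand numbered 1 in replicate 1 and 3 in replicate 2. A read whose sequence fits both strands of such a locus, or several loci, entered no count, so the level of Mir486 is uncertain. Muscle, the other tissue known for miR-486, was represented by Mir206, with 140 and 189 counts and a log2 ratio of -0.01, and by Mir133b, with 4 and 5 counts. The part of these cells in the counts of Mir486 was not tested. After TMM scaling, 2 neuronal genes and 1 epithelial gene on the marker lists were also over 2-fold higher in replicate 1. The neuronal genes were Mir128-1 (5554 and 3291 counts, 2.26-fold) and Mir128-2 (2370 and 1453 counts, 2.19-fold). With scaling by total counts these 2 fell short of 2-fold, at log2 ratios of 0.97 and 0.92. The epithelial gene was Mir200c (34 and 19 counts, 2.37-fold). The other epithelial gene listed, Mir203, had 1185 and 1741 counts and a log2 ratio of -0.13. The part of such cells in the result for Mir486 was not tested.

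Summed over the 3 red cell genes, there were 299 counts in replicate 1 and 416 in replicate 2, or 0.00943% (interval 0.00839 to 0.0106) and 0.0113% (0.0103 to 0.0125) of sense counts. The log2 ratio of the sum was -0.05 (interval -0.27 to 0.17), and -0.26 with scaling by total counts (interval -0.48 to -0.05). Without Mir486, an alternative added after the data were seen, it was -0.27 (interval -0.51 to -0.04).

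The leukocyte genes did not share 1 pattern. Mir150 and Mir155 had nearly equal levels and, after TMM scaling, ratio intervals that include 0. Mir146 and the other strand of Mir142b were moderately higher in replicate 2, and Mir223 was far higher there. Their sense counts summed to 482 in replicate 1 and 1029 in replicate 2, 0.0152% (interval 0.0139 to 0.0166) and 0.0280% (0.0263 to 0.0298). In a bulk sample, fewer cells of a type and less RNA per cell cannot be told apart.

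Mir223, which restrains granulocyte production and inflammatory activity, lies in an exon of the noncoding gene F630028O10Rik at chromosome X, 96242817 to 96242926. It had 63 counts (19.9 CPM) in replicate 1 and 375 counts (102 CPM) in replicate 2, a mean of 61.0 ± 58.2 CPM (SD, n = 2), so its SD was nearly as large as its mean. It was 4.41-fold higher in replicate 2, with a log2 ratio of -2.14 (interval -2.56 to -1.76). Its counting interval overlapped that of no other member except Mir511, whose interval has no lower end. Against Mir150 of the same library, Mir223 had 0.377 times the counts in replicate 1 (interval 0.278 to 0.507) and 1.56 times in replicate 2 (1.32 to 1.84).

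The libraries also differed in markers of other cell types. Some, such as Mir128-1, Mir128-2 and Mir200c given with Mir486 above, were higher in replicate 1, and those given here went in the direction of Mir223. All 3 sensory genes, Mir96, Mir182 and Mir183, were over 2-fold higher in replicate 2, and their summed share was 0.211% in replicate 1 and 1.505% in replicate 2. The mesenchymal list was 0.120% and 0.489% of sense counts, and 5 of the 6 listed genes passed the filter, all 5 of them over 2-fold higher in replicate 2. The sixth, Mir199a-1, had 0 and 2 counts. Of the 5, Mir199a-2 (1 and 37 counts) passed through replicate 2 alone, so it had to be higher there. Over all 360 genes past the filter, 28 (7.78%) were 2-fold or more higher in replicate 2. Both lists were chosen with earlier results known, so nothing is read from their counts of genes. The endothelial gene Mir126a was 1.77-fold higher in replicate 2 at 26782 and 63418 counts. The part of tissue around the neural tube in the counts of Mir223 was not tested. The log2 ratio of the summed red cell genes was -0.05, or -0.26 with scaling by total counts and -0.27 without Mir486.

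Mir150, which controls B and T cell maturation, lies outside other annotated genes at chromosome 7, 45121757 to 45121821. It had 167 counts (52.6 CPM) in replicate 1 and 241 counts (65.6 CPM) in replicate 2, with a log2 ratio of -0.10 (interval -0.40 to 0.19). Mir155, induced in activated lymphocytes and macrophages, lies in an exon of its host transcript Mir155hg at chromosome 16, 84714140 to 84714204. It had 165 counts (52.0 CPM) and 236 counts (64.3 CPM), with a log2 ratio of -0.09 (interval -0.39 to 0.20). With scaling by total counts the log2 ratios were -0.32 for Mir150 (interval -0.61 to -0.03) and -0.30 for Mir155 (interval -0.60 to -0.01), and neither interval includes 0. These genes differed from each other by less than their counting error in both libraries.

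Mir146, which dampens signalling from Toll-like receptors, lies at chromosome 11, 43374397 to 43374461 on the minus strand, outside other annotated genes. It had 87 counts (27.4 CPM) in replicate 1 and 177 counts (48.2 CPM) in replicate 2, a log2 ratio of -0.60 (interval -0.99 to -0.22) that lies below 0 but short of 2-fold. Its seed relative Mir146b, in an intron of Mfsd13a on chromosome 19, had 7 and 10 counts. Mir146 thus had 12.4 times the counts of Mir146b in replicate 1 (interval 5.78 to 31.8) and 17.7 times in replicate 2 (9.40 to 37.6). The sequences printed above differ at 2 bases near the 3′ end, so a read that ends before base 18 fits both genes and would not be counted for either.

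At Mir142b every read lay on the strand opposite the gene. Mir142b is annotated on the minus strand at chromosome 11, 87756841 to 87756955, and had 0 sense counts in each library. The other strand held 316 reads in replicate 1 and 699 in replicate 2, which come to 99.6 and 190 CPM of the sense total (mean 145 ± 64.2 CPM, SD, n = 2). That strand carries Mir142, at 87756864 to 87756927 within an intron of Mir142hg, which has no row of its own here. The log2 ratio of these reads was -0.72 (interval -0.92 to -0.53), or 1.65-fold higher in replicate 2. Of the 374 genes with at least 10 reads on either strand in 1 library, 11 (2.94%) had over 50% of their reads on the other strand, Mir142b among them. Of the other 8 members, Mir486 had 4.82% of its reads on the other strand, Mir150 0.244%, and the others 0%.

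With the other-strand reads at Mir142b added, the leukocyte group came to 798 and 1728 reads, 0.0252% and 0.0471% of the sense total, and Mir142b was its largest part in both libraries. Relative to the red cell genes, leukocyte reads were 2.67 times as many in replicate 1 (interval 2.33 to 3.06) and 4.15 times in replicate 2 (3.73 to 4.63). On the sense strand alone this ratio was 1.61 (1.39 to 1.87) and 2.47 (2.21 to 2.78), and these intervals do not overlap. On the sense strand alone and without Mir223, it was 1.40 (1.21 to 1.63) and 1.57 (1.39 to 1.78), with overlapping intervals. That version leaves out the other-strand reads at Mir142b as well as Mir223, so it does not show the effect of Mir223 alone. With those reads kept and Mir223 left out, the summed leukocyte log2 ratio was -0.46. The red cell sum stood at -0.05 with Mir486 and at -0.27 without it. All ratios of leukocyte to red cell reads given here keep Mir486, which was higher in replicate 1, among the red cell genes.

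**Figure D2:**
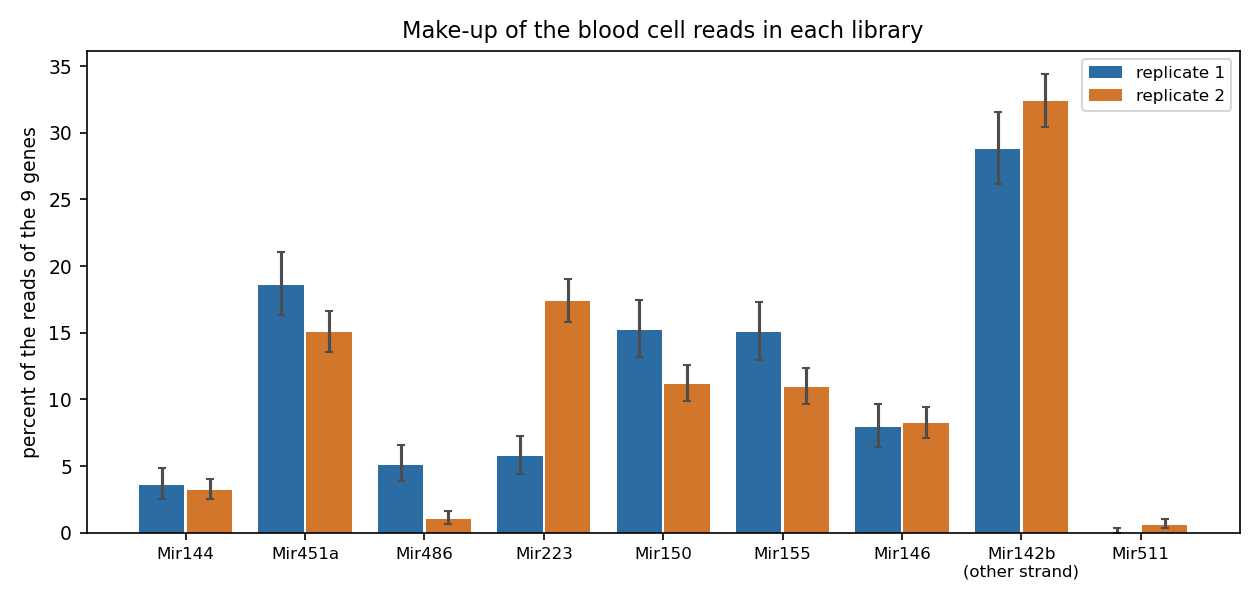
Share of each gene in the reads of the 9 genes (1097 reads in replicate 1, 2157 in replicate 2), in percent, with exact 95% binomial intervals as bars; Mir142b is counted on its other strand. Mir142b takes 28.8% and 32.4%, while Mir223 takes 5.74% in replicate 1 and 17.4% in replicate 2, and Mir486 takes 5.10% and 1.07%.

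Within the reads of the 9 genes, Mir451a took 18.6% in replicate 1 and 15.0% in replicate 2. Mir150 took 15.2% and 11.2%, and Mir155 15.0% and 10.9%. Mir146 kept nearly the same share, at 7.93% and 8.21%, and so did Mir144, at 3.56% and 3.20%. Mir486 fell from 5.10% in replicate 1 to 1.07% in replicate 2. Mir223 rose from 5.74% to 17.4%, Mir142b from 28.8% to 32.4% and Mir511 from 0% to 0.603%. Shares sum to a whole, so a rise in some genes lowers the share left for the rest.

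Mir511 was at the edge of detection. It lies in an intron of Mrc1, the gene of the mannose receptor CD206 of tissue macrophages, at chromosome 2, 14261003 to 14261081, and is transcribed with it. It had 0 counts in replicate 1 and 13 counts (3.54 CPM, interval 1.89 to 6.05) in replicate 2. Taking the limit of 3 counts for replicate 1, it was at least 3.23-fold higher in replicate 2. That bound takes the 13 counts as exact, and the counting interval of the ratio, which includes their error, reached down to 2.27-fold. Because it passed the count filter through replicate 2 alone, it had to differ between the libraries.

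**Figure D3:**
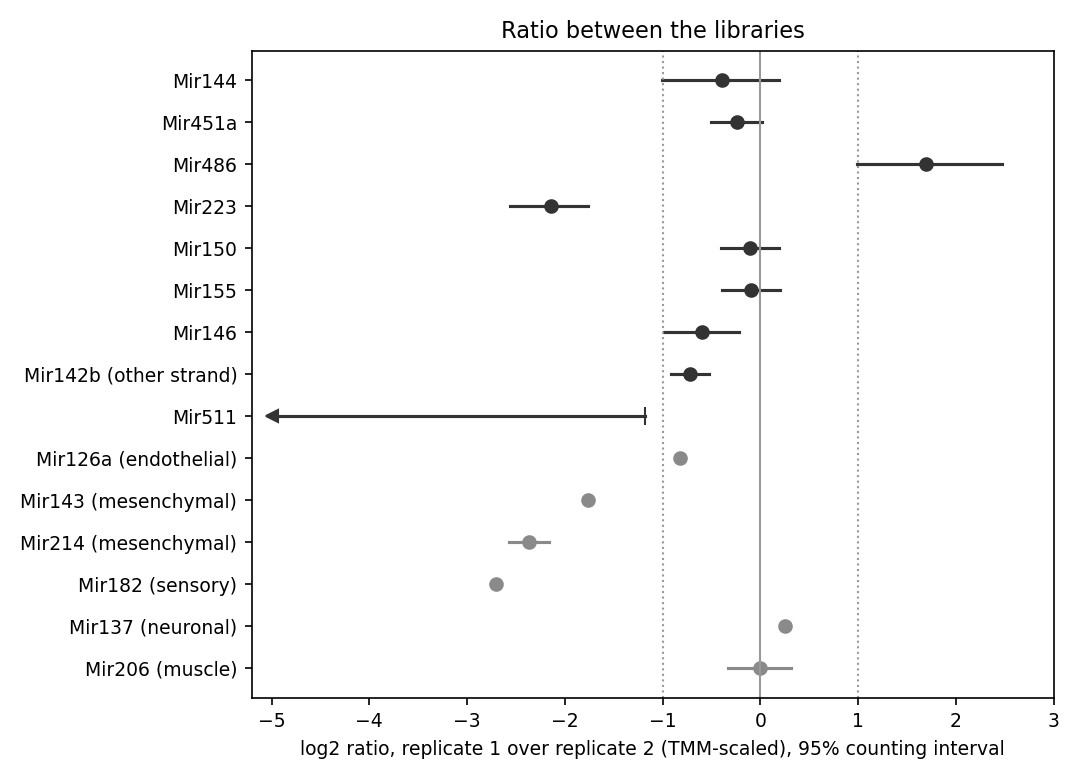
Log2 ratio of replicate 1 over replicate 2 after TMM scaling, with exact 95% counting intervals, for the 9 members (dark) and for single markers of other cell types (grey). Dotted lines mark 2-fold. The grey markers were picked with their values known, and those past 2-fold are all higher in replicate 2. Listed markers not drawn lie past 2-fold in both directions, such as Mir128-1 (1.18) and Mir200c (1.25), and Mir96 (-2.77) and Mir199b (-3.36). Mir486 lies at 1.69 and Mir223 at -2.14, and the arrow of Mir511 marks an interval with no lower end because its count in replicate 1 was 0.

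Across the 360 genes that reached 10 counts in either library, 44 (12.2%) differed 2-fold or more, 28 (7.78%) higher in replicate 2 and 16 (4.44%) higher in replicate 1. With scaling by total counts the split was 42 and 11, which moved the share higher in replicate 2 from 63.6% to 79.2%. Of the members, 8 passed this filter on the sense strand and 3 were past 2-fold: Mir223 and Mir511 higher in replicate 2 and Mir486 higher in replicate 1. The ratio helped to choose the members and Mir511 passed through 1 library alone, so nothing is read from this count. Of the members, 7 (all but Mir511 and Mir142b) had at least 50 and under 1000 sense counts over both libraries, and 17 of the 137 genes in that band were past 2-fold (12.4%). The median log2 ratio was -0.32 over the 8 members that passed and -0.02 over the 360 genes. With 1 library per dam there is no replicate check on any ratio.

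**Figure D4:**
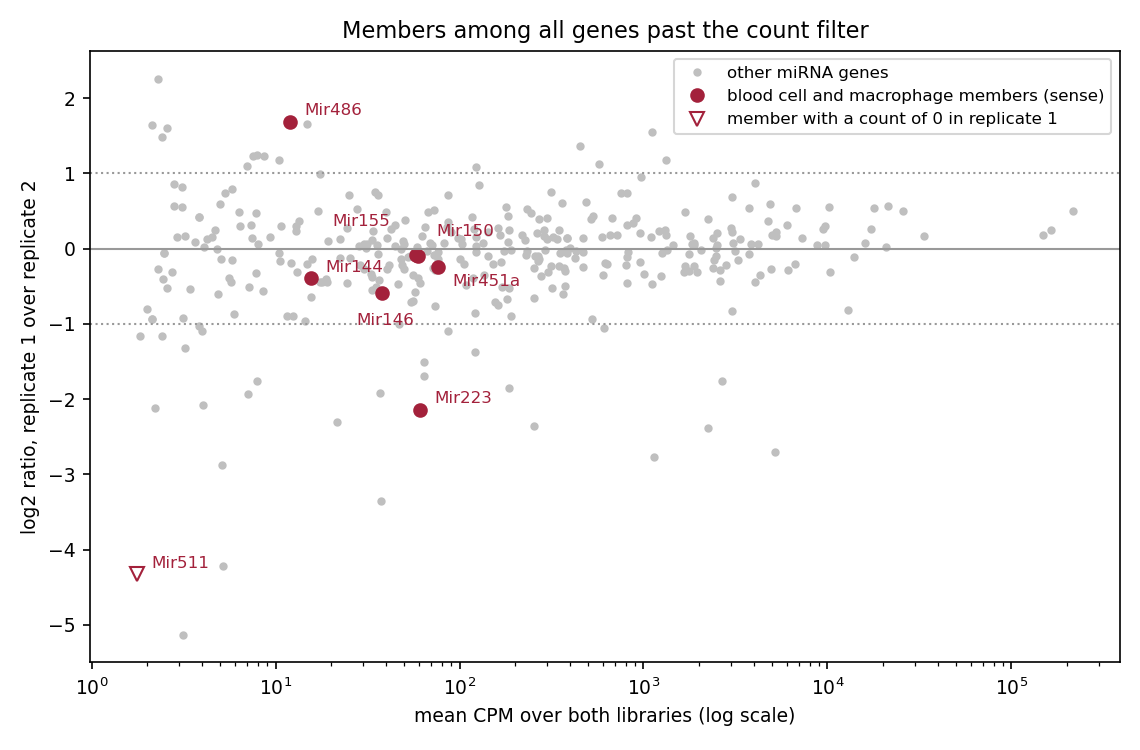
Log2 ratio of replicate 1 over replicate 2 against mean CPM (log axis) for the 360 genes past the filter, with the 8 members that passed on the sense strand in red and dotted lines at 2-fold. Mir150, Mir155, Mir451a, Mir144 and Mir146 lie between the dotted lines; the open triangle of Mir511 has a count of 0 in replicate 1, so its height depends on the prior count of 0.5.

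By mean level the 8 members with sense counts ranked between 200 (Mir451a) and 376 (Mir511) of the 1973 genes on the sense strand. The genes ranked directly above and below each member are named, so their similar level follows from that choice. Mir451a lay between Mir701 (76.3 ± 13.0 CPM) and Mir702 (74.0 ± 17.8 CPM). Mir223 lay between Mir190a (61.1 ± 19.9 CPM) and Mir302d (59.7 ± 17.6 CPM), with a larger SD than either. Mir150 and Mir155 were separated only by Mir31 (58.9 ± 5.70 CPM), and Mir155 was followed by Mir1249 (58.1 ± 7.23 CPM). Mir146 stood beside the liver gene Mir122 (39.7 ± 5.34 CPM) and the mesenchymal gene Mir199b (37.4 ± 44.9 CPM). Mir144 followed Mir344f and preceded Mir1247, and Mir486 stood between Mir190b and Mir181b-1. Mir511 stood between Mir124a-3 and Mir6998.

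For 3 members, the 3 genes past the filter with the closest ratio between the 2 libraries are named. For Mir486 they were Mir1247 (69 and 29 counts, log2 ratio 1.66), Mir5618 (10 and 4 counts) and Mir3094 (12 and 5 counts). For Mir511 they were Mir199a-2 (1 and 37 counts), Mir3547 (0 and 23 counts) and Mir199b (18 and 254 counts), 2 of them on the mesenchymal list. The count of Mir511 in replicate 1 was 0, so its ratio depends on the prior count. Its log2 ratio was -4.33 with the prior count of 0.5 and -2.48 with a prior count of 2. Nothing is therefore read from the genes closest to Mir511. For Mir223, a choice made after its values were seen, they were Mir293 (2 and 14 counts), Mir2137 (4 and 25 counts) and Mir574 (20 and 135 counts, log2 ratio -2.30). A likeness over 2 libraries is that of a single ratio.

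Other miRNA genes with known roles in blood cells are also expressed outside blood, and some lay within the members' own range of levels. Of the 18 listed, 16 were measured, and all 16 passed the filter, with mean levels from 11.5 to 13955 CPM. The highest were Mir130a, known from megakaryocytes, at 12378 and 15532 CPM, Mir126a, of endothelium and blood stem cells, at 8443 and 17271 CPM, Mir181c, of a family that tunes T cell signalling, at 9110 and 10216 CPM, and Mir342 at 7529 and 6027 CPM. After TMM scaling, 1 of the 16 was past 2-fold, beside 44 (12.2%) of the 360 genes past the filter. It was Mir221, a regulator of the stem cell factor receptor Kit, with 191 and 667 counts and 2.60-fold higher in replicate 2. Its cluster partner Mir222 had 151 and 218 counts with a log2 ratio of -0.10. With scaling by total counts, Mir126a (log2 ratio -1.03) and Mir181b-1 (-1.10) were past 2-fold too, beside 53 of the 360 genes with that scaling. The median log2 ratio of the 16 after TMM scaling was -0.16.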

How the data were processed

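The values used are raw read counts per miRNA gene, deposited by the authors as 1 table per library with columns for either strand, the sense strand and the other strand. Per the text notes in the deposited files, they derive from alignments to mm10 with annotation M4. No source used here names the aligner, the counter or the read filters. The 4 rows that name no gene stayed out of all totals.

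Identifiers were matched without version to GENCODE M21 (GRCm38, the assembly of mm10), which named 1894 of 1973. Sequences are from the RefSeq miRNA table of GRCm38.p6. CPM was computed on sense counts. Libraries were scaled by TMM in edgeR 4.0.16 (R 4.3.3) over 360 genes with at least 10 counts in 1 library, and log2 ratios carry a prior count of 0.5. With 1 group and 1 library per dam no test was made. Intervals are exact binomial or Poisson 95% intervals (scipy 1.17.1), and their calculation was tested on simulated data. Genes named are the 9 members, their seed or opposite-strand partners, the 4 most abundant of a list with roles in blood, and nearest neighbours in rank and ratio. Others, such as Mir221, Mir222, Mir299b, Mir497b and single markers of other cell types, were picked with their values known. The members and lists were chosen with earlier results of these data known. Alternatives changed the scaling, filter, strand, denominator, prior count and library.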

Additional observations from a re-analysis of the deposited data

How the results depend on the processing

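All 32 alternatives for the log2 ratios of the 8 members with sense counts (total-count scaling, DESeq2 1.42.0 size factors, a prior count of 2, the either-strand column) kept their sign. With all reads of the tables as denominator the red cell share was 0.00546% and the leukocyte share 0.0113%, and without the 3 most abundant genes they were 0.0219% and 0.0453%, since the denominator changed. The either-strand column gave a leukocyte share of 0.0356%, which includes the reads at Mir142b. The summed leukocyte log2 ratio was -0.67. It came to -0.88 with scaling by total counts and, in alternatives added after the data were seen, to -0.22 without Mir223 and -0.46 without Mir223 but with the other-strand reads at Mir142b. With a filter of 100 counts, 1 of 5 members (Mir223) and 20 of 265 genes were past 2-fold. With no filter, 3 of 8 members and 229 of 678 genes were. Counting error limits Mir511, Mir144 and Mir486 most. Leaving out a library left no ratio to compute.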

Other observations

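Besides Mir142b, 2 other named genes were read almost wholly from the strand opposite their annotation. Mir299b had 1 sense and 904 other-strand reads in replicate 1 and 0 and 1752 in replicate 2, and Mir497b had 1 and 529 in replicate 1 and 0 and 823 in replicate 2. The remaining 8 of the 11 such loci have only a provisional gene name.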
